A study of Homo sapiens with 3 samples.

Results

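The mitochondrial ribosomal protein genes were taken as the rows of the deposited expression table whose name begins with MRPL or MRPS and a number, with or without a closing A, B or C. There were 78 such genes among 35851 rows. The libraries came from 5637 cells, a human bladder cancer line whose genotype is given as WT, grown in RPMI 1640 with fetal bovine serum and transfected with siRNA by Lipofectamine 3000. The groups were siMYBL2, with the libraries siMYBL2-1 and siMYBL2-2, and siNC, a control siRNA with 1 library. The labels do not say whether the siMYBL2 endings name different siRNA sequences or repeats, nor whether the cells were cultured separately, so the spread between these samples may be technical. All groups shared the cell line, its genotype, the medium and the transfection reagent.

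Mitochondrial ribosomal proteins are encoded in the nucleus, made on cytosolic ribosomes and imported into mitochondria, where they join ribosomal RNAs transcribed from mitochondrial DNA. The resulting mitoribosome translates only the mitochondrially encoded subunits of the respiratory chain and the ATP synthase. Some of its proteins descend from bacterial ribosomal proteins, and others have no bacterial homologue. The study asked which targets MYBL2 regulates in bladder cancer. MYBL2 is a transcription factor best known for activating genes of the late cell cycle.

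The library totals were 41818861 reads in siMYBL2-1, 46177658 in siMYBL2-2 and 40259436 in siNC. MYBL2 itself was at 46.0 RPKM in siMYBL2-1 and 56.3 RPKM in siMYBL2-2, against 211 RPKM in siNC, where RPKM is the number of reads scaled to exonic length in kilobases and to library size. Its log2 change was -2.03 (SE 0.30), and it did not pass (limma adjusted p = 0.153 over 13274 genes). Of 11 urothelial and epithelial marker genes, 9 were at 1 RPKM or more in every library, while UPK2 stayed below that level and UPK1B was listed at 0. The leukocyte markers summed to 0.152, 0.197 and 0.215 RPKM in siMYBL2-1, siMYBL2-2 and siNC, and the endothelial markers to 0.109, 0.0711 and 0.0699 RPKM. The muscle markers summed to 0.0921, 0.130 and 0.233 RPKM and the fibroblast markers to 2.04, 1.33 and 1.48 RPKM in the same order, nearly all of it COL1A1.

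All 78 mitochondrial ribosomal protein genes had a mean of at least 1 RPKM and entered the test. None of them passed (limma, smallest adjusted p = 0.999 over 13274 genes), none had an unadjusted p under 0.05, and the smallest unadjusted p was 0.0775, for MRPS18C. Among all genes tested limma called 0.00753% higher and 0% lower, and an unadjusted p under 0.05 went with a higher value in 1.94% and a lower value in 2.76% of genes. The genes nonetheless lay mostly above siNC. In siMYBL2-1, 47 of 78 were above siNC, against 45.3% of all genes tested, and in siMYBL2-2, 67 of 78 were above it, against 48% of all genes tested. The median log2 ratio to siNC, on the log2(RPKM + 1) scale used for all log2 values here, was 0.09 in siMYBL2-1 and 0.23 in siMYBL2-2, beside -0.04 and -0.01 over all genes tested. Both ratios share the siNC library, so a deviation of siNC in these genes would move both the same way.

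Both siMYBL2 values lay above siNC for 43 of the 78 genes (55.1%), where 29.7% of all genes tested did so. Both lay below it for 7 genes (8.97%), where 36.4% of all genes tested did so. Of the other 28 genes, 24 were below siNC in siMYBL2-1 and above it in siMYBL2-2, and 4 were the reverse. The differences were small: no member reached a log2 ratio of 0.5 or of -0.5 in both libraries, a size that 2.07% and 3.13% of all genes tested reached. In siMYBL2-1 alone 7 members were at 0.5 or more (10% of all genes tested) and 1 at -0.5 or less (11.9%). In siMYBL2-2 alone 5 members were at 0.5 or more (4.07% of all genes tested) and 0 at -0.5 or less (6.56%). Single-library ratios ran between 0.661 and 1.65 times siNC in siMYBL2-1 and between 0.754 and 1.896 times siNC in siMYBL2-2. In a bulk library, less RNA per cell and fewer cells that hold it cannot be told apart.

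**Figure D1:**
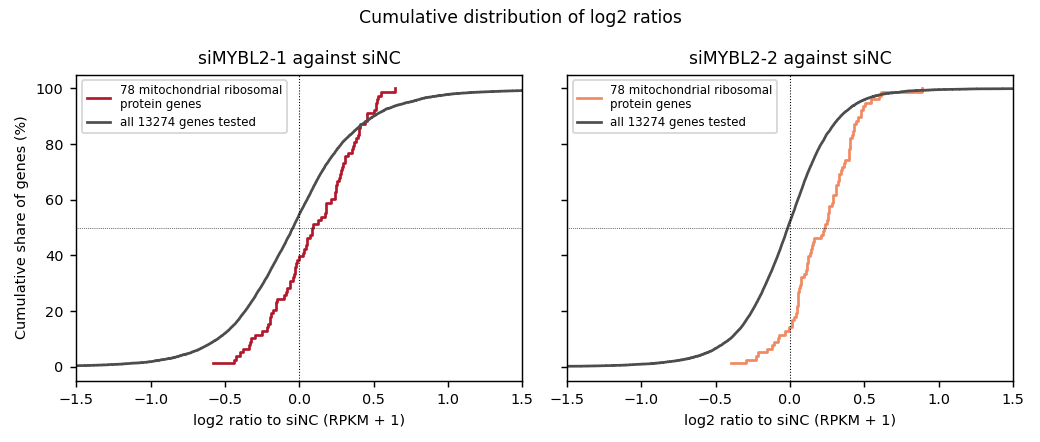
Cumulative share of genes (%) by log2 ratio to siNC (RPKM + 1) for the 78 mitochondrial ribosomal protein genes (coloured) and all 13274 genes tested (grey), in siMYBL2-1 (left) and siMYBL2-2 (right). The coloured curve crosses 50% at 0.09 and 0.23, to the right of the grey curve at -0.04 and -0.01.

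By counting error alone many of these ratios were resolved. The 95% counting interval of the ratio to siNC, an exact interval on the reads behind each value that covers counting error only, lay above 1 for 38 genes in siMYBL2-1 and for 49 in siMYBL2-2, against 31.4% and 30% of all genes tested. It lay below 1 for 20 genes in siMYBL2-1 and for 5 in siMYBL2-2, against 39.9% and 33.3%. These intervals hold no spread between cultures. Together the 78 genes took 0.339% of the assigned reads in siMYBL2-1 and 0.374% in siMYBL2-2, against 0.310% in siNC.

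The levels of the 78 genes spread over a wide range in each library. They ran between 1.27 and 166 RPKM in siMYBL2-1, between 1.72 and 154 RPKM in siMYBL2-2 and between 1.20 and 126 RPKM in siNC, with medians of 12.3, 13.5 and 11.95 RPKM. The highest was MRPS34, a small subunit protein with no bacterial homologue, at 166 RPKM in siMYBL2-1 (7624 reads) and 154 RPKM in siMYBL2-2 (7788 reads), against 126 RPKM in siNC (5550 reads). The next was MRPS26, also of the small subunit, at 110 and 105 RPKM in siMYBL2-1 and siMYBL2-2 and 82.9 RPKM in siNC. For both genes the 2 siMYBL2 values lay close together and above siNC. MRPL12, a stalk protein that helps to recruit translation factors and also binds the mitochondrial RNA polymerase, was at 70.3 and 59.6 RPKM in siMYBL2-1 and siMYBL2-2 and 51.4 RPKM in siNC. A row on the same strand, RP13-1032I1.10 (38.9, 33.3 and 29.2 RPKM in siMYBL2-1, siMYBL2-2 and siNC), overlaps it and leaves 31.8% of its bases unshared, the smallest share among the members.

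At the low end were MRPL42, MRPL43, MRPS36, MRPS30 and MRPS27. MRPL42 was at 1.27 RPKM in siMYBL2-1 and 1.72 RPKM in siMYBL2-2, against 1.20 RPKM in siNC. Its row counts 16393 exonic bases, the longest of the members, where the median is 2502 bases, and a long union of exons lowers RPKM for the same number of transcripts. Across the 78 genes longer rows tended to lower levels (Spearman's rho = -0.35 over genes of the same libraries, a description). MRPS30, a protein of the large subunit despite its name, was at 2.50 and 1.97 RPKM in siMYBL2-1 and siMYBL2-2 and 1.94 RPKM in siNC. MRPS27, an RNA-binding pentatricopeptide repeat protein of the small subunit, was at 2.42 and 2.00 RPKM in siMYBL2-1 and siMYBL2-2 and 2.35 RPKM in siNC. The siMYBL2 values of MRPS27 lay on either side of siNC.

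**Figure D2:**
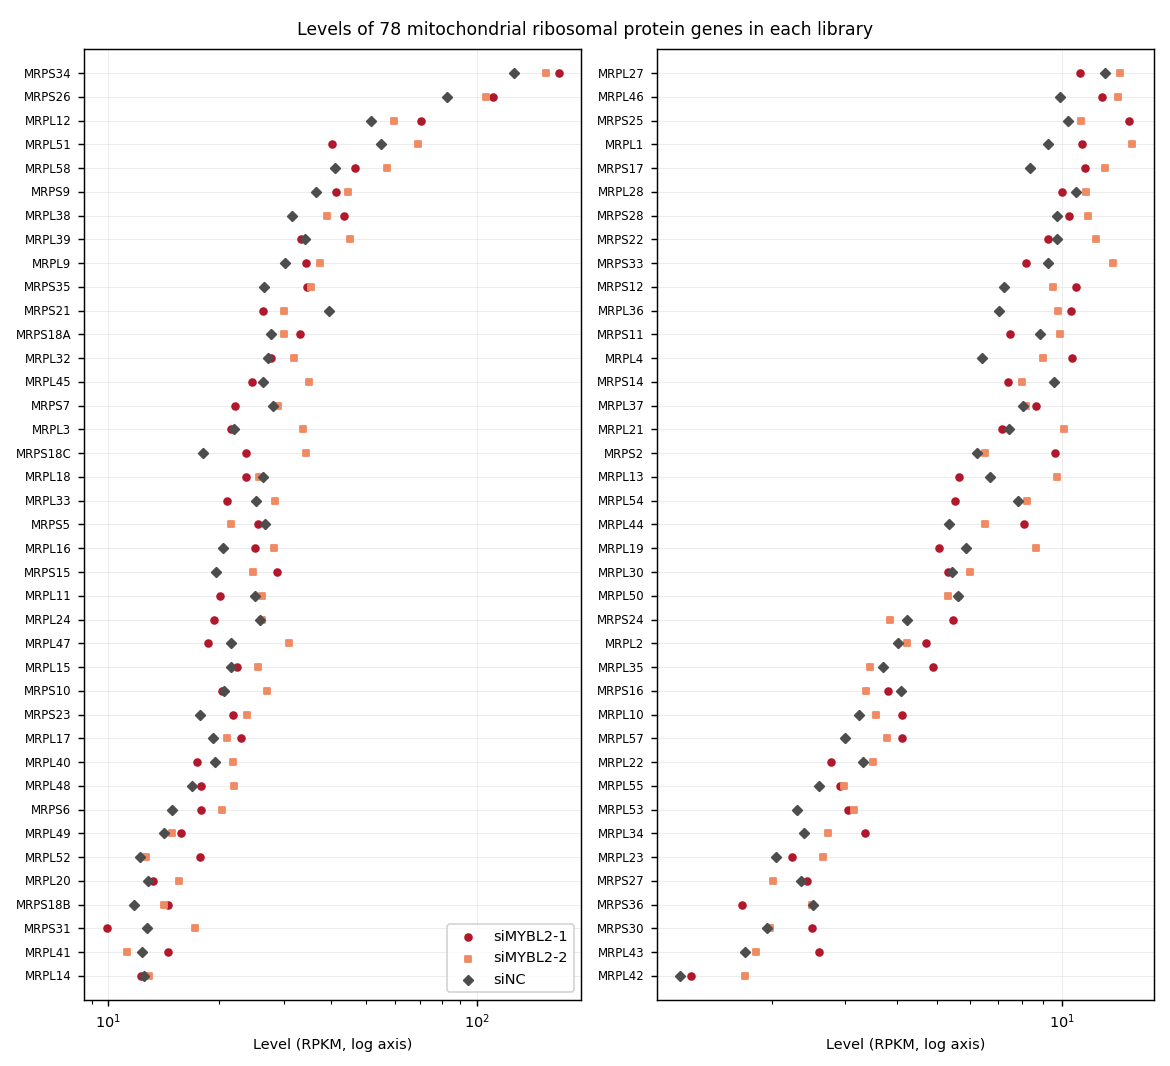
Level (RPKM, log axis) of each of the 78 mitochondrial ribosomal protein genes, ordered by mean level over 2 panels with their own axes, in siMYBL2-1 (circles), siMYBL2-2 (squares) and siNC (diamonds). The genes run between 1.20 and 166 RPKM, and in MRPS34 and MRPS26 at the top both siMYBL2 values lie to the right of siNC.

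The genes with the largest mean ratio to siNC came from both subunits. MRPS18C, a small subunit protein homologous to bacterial S18 (chromosome 4, 83455932 to 83469735, plus strand, hg38), was at 23.6 RPKM in siMYBL2-1 (4798 reads) and 34.2 RPKM in siMYBL2-2 (7695 reads), against 18.1 RPKM in siNC (3539 reads). That is 1.31 times siNC (95% counting interval 1.25 to 1.36) and 1.896 times siNC (1.82 to 1.97), which gives 0.63 on the log2 scale (SE 0.32, limma adjusted p = 0.999). Both siMYBL2 values lay above siNC, and they differed from each other more than siMYBL2-1 did from siNC. Part of this row is shared with FAM175A on the opposite strand (7.91, 11.5 and 6.30 RPKM in siMYBL2-1, siMYBL2-2 and siNC), so that 59.8% of its bases are its own. No strand setting of the counting is given in the sources used here, so reads on the common stretch may come from either gene.

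MRPL4, a homologue of the bacterial protein that lines the exit tunnel of the large subunit (chromosome 19, 10251901 to 10260045, plus strand), was at 10.6 RPKM in siMYBL2-1 (1801 reads) and 8.97 RPKM in siMYBL2-2 (1686 reads), against 6.40 RPKM in siNC (1049 reads). Its ratios were 1.65 (95% counting interval 1.53 to 1.79) and 1.40 (1.297 to 1.51), and its log2 change of 0.54 (SE 0.29) did not pass (limma adjusted p = 0.999). It has 78.6% unshared bases, and of the rows that overlap it on the opposite strand CTD-2369P2.5 was at 38.99, 32.5 and 21.8 RPKM in siMYBL2-1, siMYBL2-2 and siNC. MRPL36, homologous to bacterial L36 and sharing no bases with another row, was at 10.5 and 9.79 RPKM in siMYBL2-1 and siMYBL2-2 and 7.04 RPKM in siNC. MRPS17, a homologue of bacterial S17, was at 11.4 and 12.7 RPKM in siMYBL2-1 and siMYBL2-2 and 8.39 RPKM in siNC. It has 73.0% unshared bases. Of the rows that overlap it on the same strand, RP11-15K19.2 was at 14.4, 16.7 and 11.9 RPKM in siMYBL2-1, siMYBL2-2 and siNC. In MRPL4, MRPL36 and MRPS17 the siMYBL2 libraries lay nearer to each other than to siNC.

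MRPS12, the homologue of the bacterial decoding centre protein S12, was at 10.8 and 9.52 RPKM in siMYBL2-1 and siMYBL2-2 and 7.25 RPKM in siNC. MRPL1, homologous to the L1 protein at the exit site of the large subunit, was at 11.2 and 14.7 RPKM in siMYBL2-1 and siMYBL2-2 and 9.27 RPKM in siNC. MRPS15, a homologue of bacterial S15, was at 28.6 and 24.7 RPKM in siMYBL2-1 and siMYBL2-2 and 19.5 RPKM in siNC. All of these lay above siNC in both libraries, with log2 changes of 0.43, 0.43 and 0.42 (SE 0.29, 0.30 and 0.29). MRPS35, of the small subunit with no bacterial homologue, was at 34.6 and 35.3 RPKM in siMYBL2-1 and siMYBL2-2 and 26.4 RPKM in siNC, and its siMYBL2 values nearly coincided. MRPL44, a large subunit protein with a fold like that of RNase III, was at 8.10 and 6.52 RPKM in siMYBL2-1 and siMYBL2-2 and 5.33 RPKM in siNC. MRPL38, of the central protuberance of the large subunit, was at 43.6 and 39.1 RPKM in siMYBL2-1 and siMYBL2-2 and 31.4 RPKM in siNC, on a row with 58.9% unshared bases that RP11-552F3.12 overlaps on the same strand (38.04, 36.1 and 32.0 RPKM in siMYBL2-1, siMYBL2-2 and siNC). MRPL46 was at 12.5 and 13.6 RPKM in siMYBL2-1 and siMYBL2-2 and 9.88 RPKM in siNC. Its row has 92.1% unshared bases, and RP11-97O12.7 overlaps it on the same strand (37.8, 42.3 and 26.0 RPKM in siMYBL2-1, siMYBL2-2 and siNC). None of these genes passed (limma adjusted p = 0.999 for each).

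The genes with both siMYBL2 values below siNC were MRPS21, MRPS14, MRPS36, MRPS5, MRPS16, MRPL18 and MRPL50. MRPS21, homologous to bacterial S21 (chromosome 1, 150293720 to 150308979, plus strand, no shared bases), was at 26.2 RPKM in siMYBL2-1 (1798 reads) and 29.9 RPKM in siMYBL2-2 (2266 reads), against 39.6 RPKM in siNC (2619 reads). It had the lowest mean ratio of the 78, at 0.661 times siNC (95% counting interval 0.622 to 0.702) and 0.754 times siNC (0.713 to 0.798), which gives -0.49 on the log2 scale (SE 0.29, limma adjusted p = 0.999). MRPS14, a homologue of S14 in the head of the small subunit, was at 7.38 and 8.01 RPKM in siMYBL2-1 and siMYBL2-2 and 9.54 RPKM in siNC. MRPS5, a homologue of S5 near the messenger RNA entry, was at 25.5 and 21.5 RPKM in siMYBL2-1 and siMYBL2-2 and 26.6 RPKM in siNC. These 3 genes were the members whose counting intervals lay below 1 in both libraries, where 21.1% of all genes tested did so, and all 3 are small subunit genes with a bacterial homologue. Those with intervals above 1 in both numbered 27, where 16.1% of all genes tested did so.

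MRPS16, another bacterial homologue of the small subunit, was at 3.79 and 3.37 RPKM in siMYBL2-1 and siMYBL2-2 and 4.08 RPKM in siNC. MRPL18, a large subunit homologue of bacterial L18, was at 23.6 and 25.6 RPKM in siMYBL2-1 and siMYBL2-2 and 26.3 RPKM in siNC, and MRPL50 at 5.61 and 5.30 RPKM against 5.62 RPKM in siNC. For MRPL18 the siMYBL2-2 value was within counting error of siNC, and for MRPL50 both siMYBL2 values were. MRPS36 carries a ribosomal name, but its protein is now known as a subunit of the oxoglutarate dehydrogenase complex. It was at 1.69 and 2.49 RPKM in siMYBL2-1 and siMYBL2-2 and 2.50 RPKM in siNC, from at most 176 reads, so the siMYBL2-2 value was indistinguishable from siNC.

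**Figure D3:**
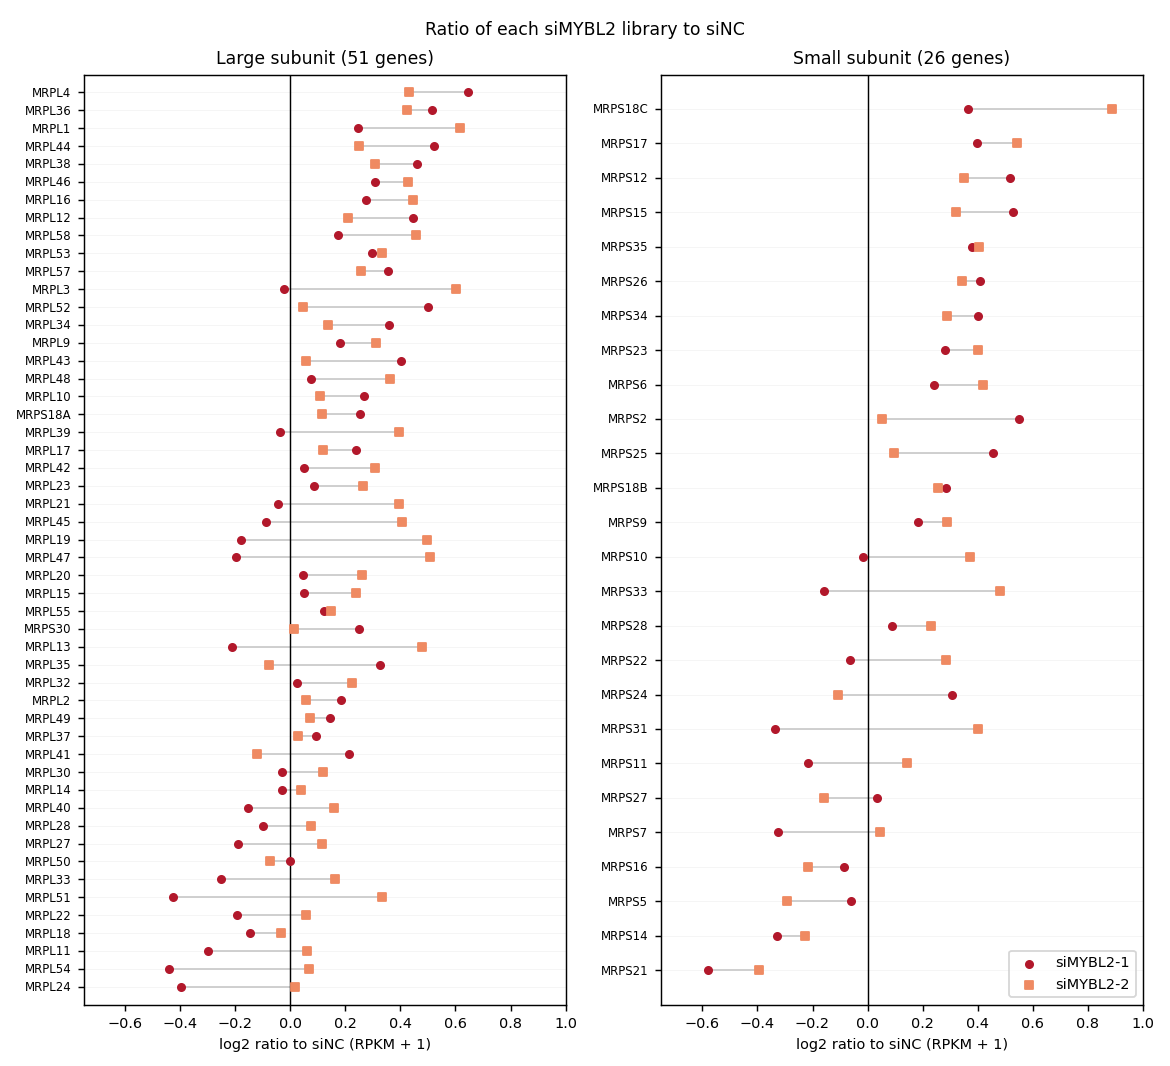
log2 ratio to siNC (RPKM + 1) in siMYBL2-1 (circles) and siMYBL2-2 (squares) for the 51 large subunit genes (left) and the 26 small subunit genes (right), each ordered by the mean ratio, with MRPS36 left out. Most pairs lie to the right of 0, with MRPS18C at the top and MRPS21 at the bottom of the small subunit, and long connecting lines mark genes in which the siMYBL2 libraries went apart.

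The promoters shown here give sequence context, and their genes were picked by hand rather than by rank. MRPS18C (chr4:83455808-83456107, plus strand), MRPL4 (chr19:10251701-10252000, plus strand), MRPL36 (chr5:1799788-1800087, minus strand) and MRPL46 (chr15:88467339-88467638, minus strand) are among the 12 named for the largest mean ratio. MRPS21 (chr1:150293611-150293910, plus strand) had the lowest mean ratio. Each promoter is the RefSeq sequence on GRCh38.p14 from 250 bases before to 50 bases after the gene's start, 5′ to 3′ on the gene's strand. Capitals mark matches, on either strand, to the motif letters given in the next paragraph.
MRPS18C: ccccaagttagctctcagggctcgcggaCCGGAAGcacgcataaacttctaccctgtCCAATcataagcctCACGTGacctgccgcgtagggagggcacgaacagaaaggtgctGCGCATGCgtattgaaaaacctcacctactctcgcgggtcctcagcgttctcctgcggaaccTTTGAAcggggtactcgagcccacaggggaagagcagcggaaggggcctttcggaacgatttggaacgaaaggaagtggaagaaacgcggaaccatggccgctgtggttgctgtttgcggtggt
MRPL4: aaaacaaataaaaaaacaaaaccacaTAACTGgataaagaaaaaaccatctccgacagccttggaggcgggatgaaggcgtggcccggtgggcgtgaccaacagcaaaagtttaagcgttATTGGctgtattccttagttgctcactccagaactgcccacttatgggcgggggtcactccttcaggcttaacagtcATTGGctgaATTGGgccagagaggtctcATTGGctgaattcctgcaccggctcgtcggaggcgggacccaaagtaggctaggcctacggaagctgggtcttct
MRPL36: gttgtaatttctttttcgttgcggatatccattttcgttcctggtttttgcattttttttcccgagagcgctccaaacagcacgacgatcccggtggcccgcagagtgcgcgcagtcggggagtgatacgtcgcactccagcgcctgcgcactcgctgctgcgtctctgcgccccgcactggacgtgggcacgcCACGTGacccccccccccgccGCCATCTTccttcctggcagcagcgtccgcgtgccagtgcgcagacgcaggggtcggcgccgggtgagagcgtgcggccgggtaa
MRPL46: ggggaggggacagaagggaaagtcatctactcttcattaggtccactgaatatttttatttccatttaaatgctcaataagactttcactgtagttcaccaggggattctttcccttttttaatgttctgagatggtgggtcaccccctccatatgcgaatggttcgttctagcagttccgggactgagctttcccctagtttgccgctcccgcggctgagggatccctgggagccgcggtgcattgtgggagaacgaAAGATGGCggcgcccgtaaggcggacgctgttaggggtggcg
MRPS21: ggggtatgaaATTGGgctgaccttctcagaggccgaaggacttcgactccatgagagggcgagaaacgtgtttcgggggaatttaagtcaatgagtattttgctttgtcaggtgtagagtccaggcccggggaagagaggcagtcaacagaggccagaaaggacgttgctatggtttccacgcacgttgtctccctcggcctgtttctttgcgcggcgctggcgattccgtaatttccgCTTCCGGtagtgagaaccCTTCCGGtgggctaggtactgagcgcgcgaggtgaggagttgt

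RefSeq promoters were matched by symbol for 69 of the 78 genes. The letters searched on both strands, with overlaps between motifs allowed, were GCATGCGC for the NRF1 core, CCGGAAG for the ETS core that GABP binds, AAGATGGC for the YY1 core, CACGTG for the E-box that MYC and its partners bind, TAACGG for MYB proteins with the further MYB spellings CAACGG as well as TAACTG as well as CAACTG in use, and for the cell cycle element CHR the letters TTTGAA, and CCAAT. NRF1, GABP and YY1 are known regulators of nuclear genes for mitochondrial proteins. The ETS core was in 29 of 69 member promoters (42.03%), against 10.3% of all 35116 promoters of the same length, and the YY1 core in 20 of 69 (29.0%), against 2.89%. The NRF1 core was in 6 of 69 (8.70%), against 3.05%, and the E-box also in 6, against 7.26%. The MYB letters were in 16 of 69 (23.2%), against 25.7%, the CHR letters in 4 of 69 (5.80%), against 15.2%, and CCAAT in 20 of 69 (29.0%), against 34.6%. A second background is the 8075 of the 13274 genes tested that had a promoter in the table. Among them the shares were 20.7% for the ETS core, 6.23% for the YY1 core, 5.86% for the NRF1 core, 10.5% for the E-box, 24.1% for the MYB letters, 9.61% for the CHR letters and 37.4% for CCAAT. The shares of the ETS, YY1 and NRF1 cores in the member promoters lay above both backgrounds, and less far above the tested genes than above all promoters. That of the E-box lay above all promoters and below the tested genes. Those of the MYB letters, the CHR letters and CCAAT lay below both backgrounds, the CHR share resting on 4 promoters. No test was made of these shares. The median G+C content was 60.3% in the member promoters, 58.7% in all promoters and 65.3% in those of the tested genes.

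Among the promoters shown, that of MRPS18C holds an ETS core at position 29, CCAAT at 58, an E-box at 72, the NRF1 core at 115 and the CHR letters at 177, counted from its first base. That of MRPL4 holds 4 matches to CCAAT on the reverse strand and a MYB match at 27. That of MRPL36 holds an E-box at 195 and a YY1 core at 216, and that of MRPL46 a YY1 core at 259. That of MRPS21 holds CCAAT at 11 and 2 ETS cores, at 240 and 258. By motif, the medians of the log2 ratio did not lie on one side. The 29 genes with an ETS core had a median of -0.02 in siMYBL2-1 and 0.31 in siMYBL2-2, and the 40 without one had 0.18 and 0.15. The 20 with a YY1 core had 0.05 and 0.26, and the 49 without one 0.14 and 0.21. The 16 with a MYB match had -0.02 and 0.28, and the 53 without one 0.18 and 0.21. In siMYBL2-1 the order was the other way for 3 motifs. The 20 genes with CCAAT had 0.23 and 0.17, and the 49 without it 0.05 and 0.26. The 6 with the NRF1 core had 0.26 and 0.17, and the 63 without it 0.09 and 0.26. The 4 with the CHR letters had 0.32 and 0.26, and the 65 without them 0.07 and 0.22. For the E-box the 6 genes with it had 0.12 and 0.24, and the 63 without it 0.12 and 0.25. These medians are descriptions, and a match is not a bound site.

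**Figure D4:**
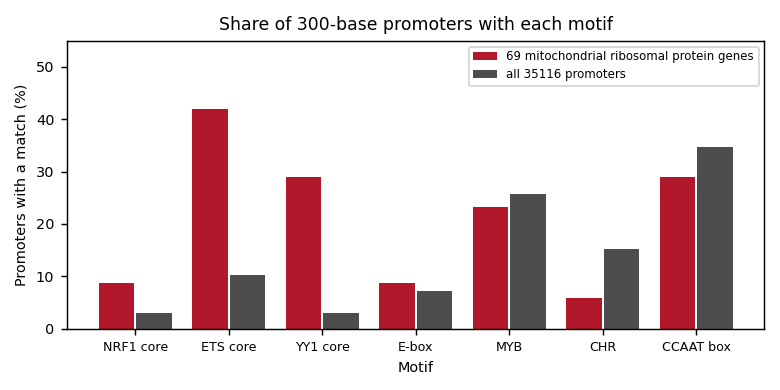
Share of 300-base promoters (%) that hold each motif, for 69 mitochondrial ribosomal protein genes (left bar of each pair) and all 35116 promoters (right bar). The ETS core and the YY1 core stand at 42.03% and 29.0% of the member promoters, against 10.3% and 2.89% of all promoters.

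Between the subunits the ratios overlapped widely. The 51 large subunit genes had a median log2 ratio of 0.09 in siMYBL2-1 and 0.21 in siMYBL2-2, with 29 above siNC in both libraries and 2 below it in both. The 26 small subunit genes had medians of 0.21 and 0.29, with 14 above in both and 4 below in both. Over all genes tested, 29.7% lay above siNC in both and 36.4% below it in both. Grouped by descent, the 46 genes with a bacterial homologue had medians of 0.05 and 0.19, with 23 above siNC in both and 5 below. The 31 genes listed with no bacterial homologue had medians of 0.21 and 0.29, with 20 above siNC in both and 1 below. These 31 include the S18-like MRPS18A and MRPS18B, and MRPL58 of the release factor family, so the grouping does not separate descent cleanly. Mean log2 ratios of the 31 genes lay between -0.19 and 0.39, within the range of -0.49 to 0.63 of the 46. The difference between the groups was not tested. By exons shared with other rows, the 53 with at least 90% unshared bases had medians of 0.03 in siMYBL2-1 and 0.26 in siMYBL2-2, with 25 (47.2%) above siNC in both. The other 25 had medians of 0.30 and 0.16, with 18 (72.0%) above siNC in both, and the part of the sharing in these values was not tested. MRPS12, MRPS14, MRPS16, MRPS18A, MRPS2 and MRPL44 are also among these 25.

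The 3 S18-like genes show how members of 1 family lay. MRPS18A and MRPS18B were grouped above with the 31 genes listed with no bacterial homologue, although they are S18-like. MRPS18B, of the small subunit, was at 14.5 and 14.2 RPKM in siMYBL2-1 and siMYBL2-2 and 11.7 RPKM in siNC, and MRPS18A, of the large subunit, at 33.0 and 29.9 RPKM against 27.6 RPKM in siNC. With MRPS18C, all 3 had both siMYBL2 values above siNC, and in siMYBL2-2 the ratio of MRPS18C (1.896) lay apart from those of MRPS18B (1.21) and MRPS18A (1.08). Around the stalk, MRPL10, which anchors MRPL12, was at 4.10 and 3.56 RPKM in siMYBL2-1 and siMYBL2-2 and 3.24 RPKM in siNC. MRPL11, at the base of the stalk, was at 20.1 and 26.1 RPKM in siMYBL2-1 and siMYBL2-2 and 25.0 RPKM in siNC, so its siMYBL2 values lay on either side of siNC. MRPL45, which ties the exit of the tunnel to the inner membrane, was at 24.6 and 35.0 RPKM in siMYBL2-1 and siMYBL2-2 and 26.2 RPKM in siNC. MRPL58, a protein of the release factor family that frees stalled mitoribosomes, was at 46.6 and 57.0 RPKM in siMYBL2-1 and siMYBL2-2 and 41.2 RPKM in siNC.

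The siMYBL2 libraries also differed from each other. Setting siMYBL2-1 over siMYBL2-2 gave the members a median of -0.13 on the log2 scale. Of the 78 genes 30 were higher in siMYBL2-1 than in siMYBL2-2, against 47.6% of all genes tested. This was not particular to the members: the cytosolic ribosomal protein genes described below also had a median of -0.13, with 15 of 79 higher in siMYBL2-1. Among the members the largest gaps below siMYBL2-2 were in MRPL51, MRPS31, MRPL47 and MRPL13. MRPL51 was at 40.5 RPKM in siMYBL2-1 and 69.1 RPKM in siMYBL2-2, against 54.7 RPKM in siNC. Its row has 68.7% unshared bases, and NCAPD2 overlaps it on the opposite strand (16.7, 21.4 and 25.0 RPKM in siMYBL2-1, siMYBL2-2 and siNC). MRPS31 was at 9.88 and 17.2 RPKM in siMYBL2-1 and siMYBL2-2 and 12.8 RPKM in siNC. MRPL47, a homologue of bacterial L29, was at 18.6 and 30.9 RPKM against 21.4 RPKM in siNC. The MRPL47 row has 90.9% unshared bases, and ACTL6A overlaps it on the opposite strand (69.3, 102.9 and 82.2 RPKM in siMYBL2-1, siMYBL2-2 and siNC). MRPL13 was at 5.64 and 9.71 RPKM in siMYBL2-1 and siMYBL2-2 and 6.69 RPKM in siNC. In each of these 4 genes siNC lay between the siMYBL2 libraries.

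Gaps the other way were in MRPS2, MRPL52, MRPS24 and MRPL35. MRPS2, a homologue of bacterial S2, was at 9.60 and 6.504 RPKM in siMYBL2-1 and siMYBL2-2 and 6.24 RPKM in siNC. MRPL52 was at 17.7 and 12.6 RPKM in siMYBL2-1 and siMYBL2-2 and 12.2 RPKM in siNC. In MRPS2 and MRPL52 siMYBL2-2 stayed within counting error of siNC (1.04 times siNC, 95% counting interval 0.935 to 1.16 for MRPS2). MRPS24, the homologue of bacterial S3, was at 5.46 and 3.85 RPKM in siMYBL2-1 and siMYBL2-2 and 4.22 RPKM in siNC. MRPL35 was at 4.88 and 3.44 RPKM against 3.69 RPKM in siNC. In these genes too siMYBL2-2 was within counting error of siNC. Its ratio was 0.911 (95% counting interval 0.798 to 1.04) for MRPS24 and 0.933 (0.831 to 1.05) for MRPL35. The MRPS24 row has 76.8% unshared bases, and URGCP-MRPS24 overlaps it on the same strand (36.3, 25.6 and 27.9 RPKM in siMYBL2-1, siMYBL2-2 and siNC).

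The genes lie on 21 chromosomes, and many have a close neighbour. An opposite-strand gene with its 5′ end within 1000 bases was tested for 24 of them, 25 pairs in all. Of these neighbours 7 were above siNC in both siMYBL2 libraries and 3 below it in both, where 29.7% and 36.4% of all genes tested were. The share above came near that of all genes, and the share below was smaller than that of all genes. MRPL46 and MRPS11 on chromosome 15 are neighbours of this kind, with 34 bases between their 5′ ends, so these members are also counted among the neighbours. MRPS11 was at 7.48 and 9.88 RPKM in siMYBL2-1 and siMYBL2-2 and 8.85 RPKM in siNC, so its siMYBL2 values lay on either side of siNC, where both of MRPL46 lay above. MRPL43 overlaps the 5′ end of TWNK (C10orf2 in the table), the helicase of mitochondrial DNA. SEMA4G also overlaps MRPL43 on the opposite strand (0.578, 0.647 and 0.738 RPKM in siMYBL2-1, siMYBL2-2 and siNC). Together they leave MRPL43 63.1% unshared bases. MRPL43 was at 2.59 and 1.82 RPKM in siMYBL2-1 and siMYBL2-2 and 1.72 RPKM in siNC, and TWNK at 32.0 and 21.4 RPKM against 15.97 RPKM in siNC. Both were highest in siMYBL2-1.

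MRPL23, a homologue of bacterial L23 at the exit of the tunnel, lies on the plus strand of chromosome 11 (1947278 to 1984522), and the nearer end of H19, an imprinted noncoding RNA gene on the minus strand, lies 10641 bases beyond it. MRPL23 was at 2.23 RPKM in siMYBL2-1 (277 reads) and 2.65 RPKM in siMYBL2-2 (364 reads), against 2.04 RPKM in siNC (244 reads). H19 was at 43.3 and 79.1 RPKM in siMYBL2-1 and siMYBL2-2 and 235 RPKM in siNC (log2 change -1.98, SE 0.37, limma adjusted p = 0.264). On the other side, TNNT3 was at 8.05 and 13.9 RPKM in siMYBL2-1 and siMYBL2-2 and 31.0 RPKM in siNC (log2 change -1.46, SE 0.35, limma adjusted p = 0.447); it was named after its values were seen. MRPL23 thus lay above siNC in both libraries between genes that lay below it, and its ratio in siMYBL2-1 was within counting error (1.09 times siNC, 95% counting interval 0.917 to 1.304). No gene of the 3 passed the test.

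Other genes of mitochondrial translation were set beside the members. The mitoribosome proteins outside the naming pattern had 3 of 5 above siNC in both libraries, where 29.7% of all genes tested were, and 0 below it in both, with medians of 0.19 in siMYBL2-1 and 0.24 in siMYBL2-2. GADD45GIP1, a large subunit protein, was at 56.0 and 57.1 RPKM in siMYBL2-1 and siMYBL2-2 and 45.7 RPKM in siNC. DAP3, a GTP-binding small subunit protein, was at 18.8 and 19.1 RPKM in siMYBL2-1 and siMYBL2-2 and 16.4 RPKM in siNC. AURKAIP1 was at 55.5 and 48.0 RPKM in siMYBL2-1 and siMYBL2-2 and 48.0 RPKM in siNC, and although it is counted among the 3 its siMYBL2-2 value equalled siNC within counting error. CHCHD1 was at 18.3 and 24.3 RPKM against 18.8 RPKM in siNC, and PTCD3, which binds messenger RNA at the mitoribosome, at 4.77 and 5.90 RPKM against 4.83 RPKM in siNC. None of the 5 had both siMYBL2 values below siNC, and none passed limma.

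Of 26 mitoribosome assembly factors 24 were tested, with medians of 0.14 and 0.11, 14 above siNC in both libraries and 4 below it in both. For this list and the translation factors, the shares of all genes tested were 29.7% above in both and 36.4% below in both. DDX28, a helicase that helps to build the large subunit, was at 3.15 and 2.87 RPKM in siMYBL2-1 and siMYBL2-2 and 1.94 RPKM in siNC, and RPUSD4, a pseudouridine synthase, at 6.14 and 4.04 RPKM against 3.47 RPKM in siNC. MTERF4, which guides a ribosomal RNA methyltransferase, was at 4.10 and 3.31 RPKM in siMYBL2-1 and siMYBL2-2 and 5.39 RPKM in siNC, and METTL17 at 3.53 and 4.19 RPKM against 4.35 RPKM in siNC. Of 15 mitochondrial translation factors 14 were tested, with medians of 0.13 and 0.19, 7 above siNC in both and 4 below. LRPPRC, which stabilises mitochondrial messenger RNAs, was at 24.4 and 20.04 RPKM in siMYBL2-1 and siMYBL2-2 and 15.3 RPKM in siNC, and the elongation factor partner TSFM at 8.32 and 8.97 RPKM against 6.43 RPKM in siNC. The initiation factor MTIF3 was at 5.18 and 7.36 RPKM in siMYBL2-1 and siMYBL2-2 and 7.78 RPKM in siNC, and the release factor MTRF1 at 0.990 and 1.07 RPKM against 1.47 RPKM in siNC. No gene of either list passed limma.

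Among 10 genes of mitochondrial DNA transcription and replication, 5 were above siNC in both libraries and 1 below it in both. Of all genes tested, 29.7% and 36.4% were. TFB2M, the initiation factor of the mitochondrial RNA polymerase, was at 17.3 and 16.1 RPKM in siMYBL2-1 and siMYBL2-2 and 9.45 RPKM in siNC (log2 change 0.76, SE 0.29, limma adjusted p = 0.934). It was the only gene of these lists with an unadjusted p under 0.05 (0.0244). POLG2, the accessory subunit of the mitochondrial DNA polymerase, was at 3.80 and 3.18 RPKM in siMYBL2-1 and siMYBL2-2 and 4.30 RPKM in siNC. MGME1, a mitochondrial exonuclease, was at 6.55 and 8.54 RPKM in siMYBL2-1 and siMYBL2-2 and 7.82 RPKM in siNC.

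Of the 10 regulators of nuclear genes for mitochondria, 9 were tested, 3 above siNC in both and 3 below it in both. The shares of all genes tested were 29.7% and 36.4%. PPRC1, a coactivator related to PGC-1, was at 8.94 and 6.80 RPKM in siMYBL2-1 and siMYBL2-2 and 5.23 RPKM in siNC, and MYC at 43.3 and 24.5 RPKM against 21.5 RPKM in siNC. NRF1 was at 3.44 and 3.54 RPKM in siMYBL2-1 and siMYBL2-2 and 3.81 RPKM in siNC, and GABPB2 at 2.06 and 2.66 RPKM against 2.98 RPKM in siNC. None passed limma.

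The mitochondrially encoded messenger RNAs are what the mitoribosome translates, and the siMYBL2 libraries lay apart in them. They are counted here as 13 rows, some of which share bases. MT-ATP8, which overlaps MT-ATP6, has 77.8% unshared bases, and MT-ND4L, which overlaps MT-ND4, has 97.6%. The 13 rows are therefore not all separate RNAs. Over all 13 the median was 0.06 for siMYBL2-1 and -0.12 for siMYBL2-2 on the log2 scale. Of the 13 rows 2 were above siNC in both and 4 below it in both, where 29.7% and 36.4% of all genes tested were. All 13 were higher in siMYBL2-1 than in siMYBL2-2, where 47.6% of all genes tested were. MT-CO3 was at 15553 and 14356 RPKM in siMYBL2-1 and siMYBL2-2 and 20549 RPKM in siNC, a log2 change of -0.46. MT-ND2 was at 4127 and 3217 RPKM in siMYBL2-1 and siMYBL2-2 and 3130.3 RPKM in siNC, a log2 change of 0.22. The log2 changes of the other 11 lay between those of MT-CO3 and MT-ND2. Of the other complex I subunits, MT-ND4L was at 7646 and 6327 RPKM in siMYBL2-1 and siMYBL2-2 and 6225 RPKM in siNC, above siNC in both libraries as MT-ND2 was. MT-ND3 was at 2195 and 1594 RPKM in siMYBL2-1 and siMYBL2-2 and 2244 RPKM in siNC, below it in both. MT-ND1 was at 4570.4 and 3486 RPKM in siMYBL2-1 and siMYBL2-2 and 3798 RPKM in siNC. MT-ND4 was at 5115 and 4020.2 RPKM in siMYBL2-1 and siMYBL2-2 and 4357 RPKM in siNC. The values of MT-ND1 and MT-ND4 lay on either side of siNC, with siMYBL2-1 above it. The same held for both further complex I subunits. MT-ND5 was at 2468 and 1866 RPKM in siMYBL2-1 and siMYBL2-2 and 2380.0 RPKM in siNC. MT-ND6 was at 4132 and 2976 RPKM in siMYBL2-1 and siMYBL2-2 and 4039 RPKM in siNC. Cytochrome b of complex III and a core subunit of complex IV also had siMYBL2-1 above and siMYBL2-2 below siNC. MT-CYB was at 1764 and 1388 RPKM in siMYBL2-1 and siMYBL2-2 and 1529 RPKM in siNC. MT-CO2 was at 2206 and 2033 RPKM in siMYBL2-1 and siMYBL2-2 and 2119 RPKM in siNC. The catalytic subunit of complex IV lay close to siNC. MT-CO1 was at 3245 and 3064 RPKM in siMYBL2-1 and siMYBL2-2 and 3259 RPKM in siNC. Of the ATP synthase subunits, MT-ATP6 was at 17378 and 15080.0 RPKM in siMYBL2-1 and siMYBL2-2 and 17779.8 RPKM in siNC, while MT-ATP8 was at 16026 and 12757 RPKM in siMYBL2-1 and siMYBL2-2 and 13517 RPKM in siNC. None of the 13 passed limma. Mitochondrially encoded rows together took 7.24% of the reads in siMYBL2-1 and 6.04% in siMYBL2-2, against 7.25% in siNC.

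Cytosolic ribosomal protein genes are the counterpart outside the mitochondrion. Over 79 genes the median against siNC was -0.02 for siMYBL2-1 and 0.07 for siMYBL2-2 on the log2 scale. Of these genes 29 were above siNC in both and 24 below it in both, where 29.7% and 36.4% of all genes tested were. RPL14 was at 61.8 and 57.5 RPKM in siMYBL2-1 and siMYBL2-2 and 47.3 RPKM in siNC. RPL39 was at 27.3 and 30.7 RPKM in siMYBL2-1 and siMYBL2-2 and 41.0 RPKM in siNC, and RPL27 at 553 and 537 RPKM against 729 RPKM in siNC. Their median level was 65.4, 73.5 and 74.8 RPKM, above the 12.3, 13.5 and 11.95 RPKM of the mitochondrial genes. Many cytosolic ribosomal protein genes have near-identical processed copies, so their counts are uncertain. The difference between the lists was not tested.

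**Figure D5:**
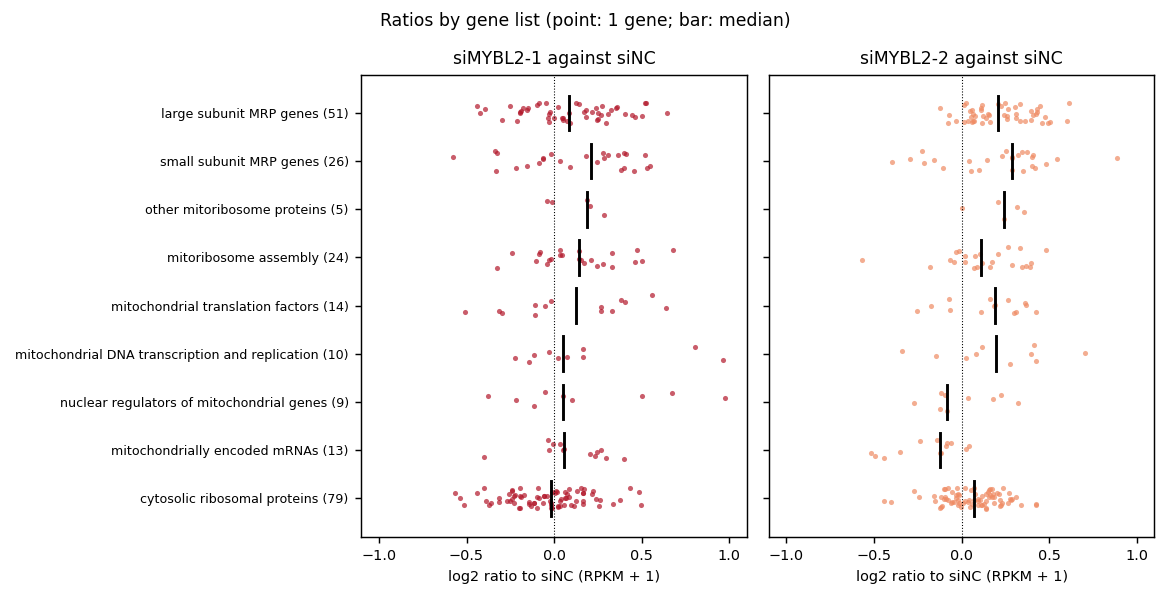
log2 ratio to siNC (RPKM + 1) of each gene (points) with the list median (bar), in siMYBL2-1 (left) and siMYBL2-2 (right), for the large and small subunit genes, 6 lists of mitochondrial gene expression and the cytosolic ribosomal protein genes. Medians of the 51 large and 26 small subunit genes lie at 0.09 and 0.21 on the left and 0.21 and 0.29 on the right, and those of the 79 cytosolic genes at -0.02 and 0.07.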

How the data were processed

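Poly(A) RNA of 1 siNC and 2 siMYBL2 libraries was sequenced; second strands were marked with dUTP and removed, per the labels' protocols. The authors deposited 1 table of RPKM values with exon intervals and exonic lengths. Per the submitters' processing notes the build is hg38, and StringTie 1.3.4d, HISAT2 2.0.4 and cutadapt 1.9 were used. Which program counted reads, with which strand setting and annotation, is not given in the sources used here. Multiplying RPKM by length and by a single factor per library gave whole numbers for 100% of values, within 0.001 reads, and these served as reads. At these depths 3 reads on 1 kilobase are 0.0717, 0.0650 and 0.0745 RPKM in siMYBL2-1, siMYBL2-2 and siNC. Intervals are exact conditional binomial intervals at 95% on the recovered reads and cover counting error only.

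The test was limma-trend (limma 3.58.1, R 4.3.3) on log2(RPKM + 1) of 13274 genes whose mean over the libraries reached 1 RPKM, siMYBL2 against siNC, adjusted by Benjamini-Hochberg with a threshold of 0.05. Its spread comes from the siMYBL2 pair and from moderation across genes, and siNC is assumed to vary alike. It was tried on 20 simulated draws of 13274 genes, with 200 changed genes per draw and the spread of the siMYBL2 pair. It called 2.5% of changes of 1.5 times, 17.5% of changes of 2 times and 90.5% of changes of 4 times. It also made 28.65 false calls per draw. Apart from counting error every simulated gene had the same spread, which was not shown to hold for the data. In the data MYBL2, at a log2 change of -2.03, did not pass. The simulated shares need not hold for these libraries. A member that did not pass is therefore not shown to be unchanged. Folds are plain ratios of RPKM. Named members were the 12 with the largest and up to 8 with the smallest mean ratio among those on 1 side of siNC, the 5 highest and 5 lowest by level, the 4 at either end of the ratio between siMYBL2 libraries, and 10 named for role or place. In other lists the 2 genes at either end were named, and all of the mitoribosome proteins outside the naming pattern and of the mitochondrially encoded mRNAs; 1 gene that this rule names is not reported here. The members, lists and rules were chosen with earlier results of these data known. NSUN4, YBEY, MTFMT and PPARGC1A fell under the level filter.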

Additional observations from a re-analysis of the deposited data

How the results depend on the processing

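No member of the 78 passed limma under any of the 9 other settings of the test, and their adjusted p-values lay between 0.443 and 1. The median log2 ratio of the members stayed between 0.09 and 0.25 throughout. The number above siNC in both siMYBL2 libraries lay between 43 and 50 of 78 under other pseudocounts, scalings and tests, and was 33 of 62 with genes of at least 5 RPKM, where 34.1% of all genes did so. It was 25 of 53 (47.2%) among members with at least 90% unshared bases. With a single siMYBL2 library left, the number above siNC was 47 to 67 and the number below it 11 to 31, the number at a log2 ratio of 0.5 or more was 5 to 7, and that at -0.5 or less 0 to 1. With limma-voom on recovered reads 1 member was at 0.5 or more in both libraries, where 4.14% of all genes were. With limma-voom on rows of at least 10 reads, chosen after seeing the data, 3 members were, where 8.24% of all genes were, and 3 lay below siNC in both, where 33.8% of all genes did. The unadjusted p was under 0.05 for MRPS18C under that setting (0.0407), and for MRPS35 (0.0349) and MRPL36 (0.0470) with no filter on low values. With limma-voom on rows of at least 10 reads MYBL2 passed (log2 change -1.99, limma adjusted p = 0.0311, where the other settings gave 0.118 to 0.9997). In the same limma-voom setting the log2 changes of MRPL50 and MRPL51 turned to 0.0169 and 0.0174. Over all genes tested that limma-voom setting called 2 higher and 2 lower. With either siMYBL2 library left out, log2 changes ran between -0.43 and 0.33 in MRPL51, -0.16 and 0.033 in MRPS27, -0.11 and 0.31 in MRPS24, -0.078 and 0.33 in MRPL35, -0.34 and 0.40 in MRPS31, -0.20 and 0.51 in MRPL47, -0.21 and 0.48 in MRPL13, -0.30 and 0.062 in MRPL11, and -0.088 and 0.41 in MRPL45. The causes of these shifts were not tested. No paired analysis was possible because siNC has 1 library. The single siNC library limits every comparison, since its own deviation cannot be measured.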
